A study of Mus musculus with 10 samples.

Results

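Entpd4 (gene 67464) and its copy Entpd4b (gene 100862375) are a pair of near-identical mouse genes on chromosome 14. They were selected on measured values of these livers, by their reads in animals with and without the S400D allele of Htra2, and they are 2 of the 19271 genes of the deposited table, with 4 of its 77712 transcript rows. RNA sequencing was done on liver of 10 C57BL6/N mice killed at 2 months of age. The mutation exchanges a serine of HtrA2/Omi, a protease of the mitochondrial intermembrane space, for aspartate. The groups were 3 homozygous males (S400D/S400D), 1 homozygous female, 3 heterozygous males (S400D/WT) and 3 wild-type males (WT/WT), and the 7 animals with at least 1 mutant allele are called carriers. The labels number the animals within a group without giving litters, so every spread and p-value below describes these 10 libraries.

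The protein of Entpd4 is an ecto-nucleoside triphosphate diphosphohydrolase (E-NTPDase) of the Golgi and of lysosomal and autophagic membranes, and it removes phosphate from nucleotides, UDP among them. Glycosyltransferases of the Golgi leave UDP behind when they use UDP-sugars. Its hydrolysis gives UMP, which is exchanged across the Golgi membrane for new nucleotide sugars. Other members of the family act on the cell surface on extracellular ATP and ADP or in the endoplasmic reticulum.

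Most annotated transcripts of both copies were the same letter for letter. In the GENCODE annotation of GRCm38, which has 6 transcripts of Entpd4 and 5 of Entpd4b, 5 pairs of transcripts were identical, with 0 mismatches and each 218250 bases apart on the genome, and 1 transcript of Entpd4, of 1842 bases, had no identical partner. The full-length pair has 3589 bases in 13 exons, of which 1839 are coding. It follows from this identity that all 3490 stretches of 100 bases in the full-length Entpd4 transcript also occur in Entpd4b. Of these stretches, 0 occurred in another gene. The first 150 coding bases of each copy are shown because they are the start of the protein that both genes encode, with the start codon in capitals. They lie on the plus strand of GRCm38 in a short and a longer exon part, at chr14:69347587-69347594 and chr14:69349073-69349214 for Entpd4, and at chr14:69565837-69565844 and chr14:69567323-69567464 for Entpd4b.
Entpd4: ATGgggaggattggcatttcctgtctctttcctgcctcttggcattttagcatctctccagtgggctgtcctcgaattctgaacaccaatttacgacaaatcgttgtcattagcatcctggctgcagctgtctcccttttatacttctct
Entpd4b: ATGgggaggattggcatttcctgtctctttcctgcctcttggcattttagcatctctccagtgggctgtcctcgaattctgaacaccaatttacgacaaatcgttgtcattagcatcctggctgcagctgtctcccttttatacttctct
A read that falls within the identical transcripts can therefore not be placed in 1 copy by its sequence.

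The RefSeq records that name the rows of the table do differ in extent. Entpd4 spans 29592 bases (chr14:69337151-69366742) and Entpd4b 29540 bases (chr14:69555401-69584940), with 188658 bases between them. Their starts are 218250 and their ends 218198 bases apart, so the record of Entpd4 runs 52 bases further at the 3′ end. The identical full-length GENCODE transcripts run past both ends, to chr14:69367270 for Entpd4 and chr14:69585520 for Entpd4b. The RefSeq ends thus differ as records, and the GENCODE letters of this pair do not differ. The transcript lengths implied by the deposited counts and FPKM point the same way, with the rows of Entpd4 44.9 and 46.2 bases longer than the matching rows of Entpd4b. These lengths are approximate, because the deposited FPKM are rounded and were as low as 0.42 in a row of Entpd4. For Entpd4 they rest on 3 libraries. The end of Entpd4 overlaps the annotated span of Gm16867, and the use of strand in the counting is not stated.

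Reads were assigned to Entpd4 in wild-type livers and in no carrier. Entpd4 had 0 expected counts (reads estimated per gene, not normalised) in each of the 3 homozygous males, in the homozygous female and in each of the 3 heterozygous males, against 53.67, 214.33 and 53.65 in the 3 WT/WT males. The groups did not overlap, and the second wild-type male stood far above the other wild types. Entpd4b had 460, 531 and 454 reads in homozygous males, 518 in the homozygous female, 530, 541 and 610 in heterozygous males, and 577.33, 306.67 and 469.35 in WT/WT males. The wild type with the most Entpd4 reads had the fewest Entpd4b reads, and the carriers lay within the range of the wild types except heterozygous male 3. These levels chose the pair and are given without a test.

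Added together, the copies had reads in every library. The sum was 460, 531 and 454 in homozygous males, 518 in the homozygous female, 530, 541 and 610 in heterozygous males, and 631, 521 and 523 in WT/WT males. These raw sums overlapped between carriers and wild types. In CPM (counts scaled to library size, here with TMM factors), the sum averaged 28.2 ± 2.54 in homozygous males, 33.0 ± 1.27 in heterozygous males and 34.2 ± 2.48 in WT/WT males (SD, n = 3 each), with 29.4 in the single female. On this scale the 4 homozygotes, at 26.3 to 31.1 CPM, lay below the WT/WT males, at 32.2 to 37.0 CPM, and the heterozygous males, at 31.9 to 34.4 CPM, overlapped the wild types. On the FPKM scale the homozygotes, at 9.66 to 11.61, overlapped the WT/WT males, at 10.91 to 13.71. The log2 ratio of carrier males to WT/WT males was -0.17 in CPM, given as a description. With library size alone it was -0.093, on the FPKM scale -0.087 and on the TPM scale -0.052, so its size depends on the scaling.

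**Figure D1:**
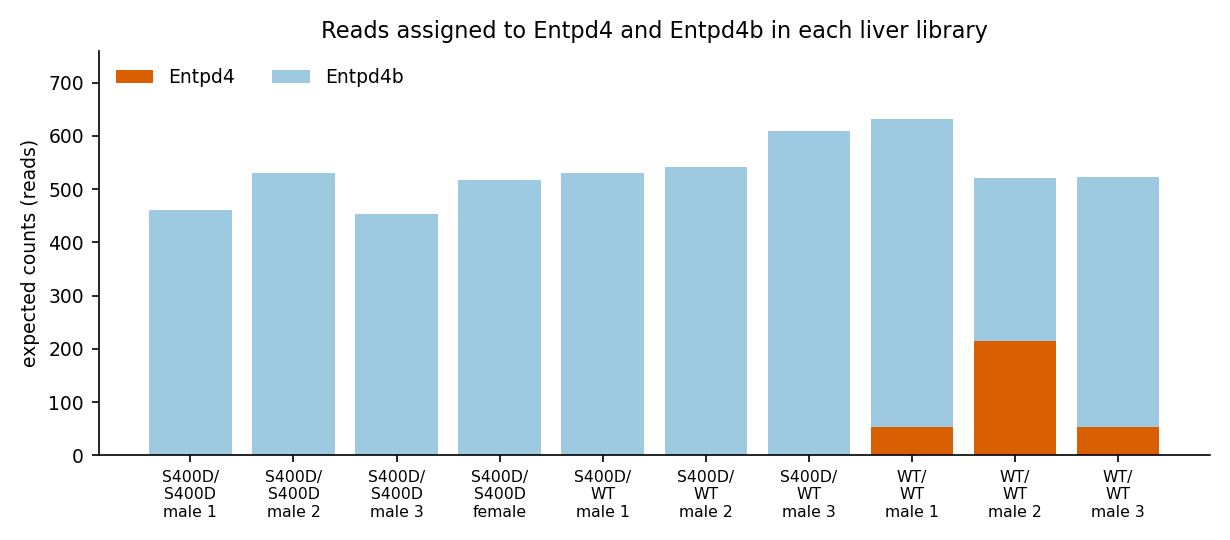
Expected counts of Entpd4 (orange) and Entpd4b (blue), stacked, in each of the 10 libraries, 1 bar per animal. Orange is seen in the 3 WT/WT males only, and the height of the bars runs between 454 and 631 reads.

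The division between the copies is given as the share of Entpd4 in the pair's reads. In WT/WT males 8.51%, 41.1% and 10.3% of the pair's reads were assigned to Entpd4, with 95% Clopper-Pearson intervals of 6.49% to 11.0%, 36.8% to 45.4% and 7.85% to 13.3%. In carriers the share was 0, with upper Clopper-Pearson bounds of 0.603% to 0.809%; the limit of 3 reads allows up to 0.492% to 0.661%. These intervals and limits cover counting error only, and not the way in which shared reads were divided. The mean share in WT/WT males was 20.0%, and without the second male it was 9.38%.

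The sums of the pair were whole numbers in 10 of 10 libraries, to within 0.05 reads, as were 94.5% of all nonzero gene sums of the table. Entpd4b alone was whole in 7 of 7 carriers and in 0 of 3 WT/WT males. Reads were thus split in fractions between the copies in the wild types, while each carrier read of the pair went to Entpd4b. The program that made the split is not named in the labels, and its part in the difference between carriers and wild types was not tested.

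Entpd4b alone was lower in homozygous than in heterozygous males, and the WT/WT males spanned both. It was at 26.3, 31.1 and 27.4 CPM in homozygous males, 29.4 CPM in the female, 32.6, 31.9 and 34.4 CPM in heterozygous males, and 33.8, 19.8 and 28.9 CPM in WT/WT males. It averaged 28.2 ± 2.54 CPM in homozygous males, 33.0 ± 1.27 CPM in heterozygous males and 27.5 ± 7.14 CPM in WT/WT males (SD, n = 3 each). The log2 ratio of carrier males to WT/WT males was 0.18, which joins both carrier genotypes. The sign of that ratio was opposite to the sign for the sum of both copies, and leaving out single males moved it between -0.037 and 0.35.

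Each copy has 2 RefSeq rows, and both rows of Entpd4 showed the same pattern. The longer row of Entpd4, NM_026174, had 30.92, 144.12 and 34.09 reads in WT/WT males, and the shorter row, NM_001360352, had 22.75, 70.21 and 19.56. Both were at 0 in all 7 carriers. Longer and shorter refer to the lengths implied by counts and FPKM, which differ by 22.5 bases between the rows of Entpd4 and by 23.8 bases between those of Entpd4b. The rounding of FPKM makes these differences approximate.

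Carriers had reads in both rows of Entpd4b. The shorter row, NM_001359160, had 275.7, 236.33 and 250.93 reads in homozygous males, 248.25 in the female, 347.68, 346.14 and 268.75 in heterozygous males, and 252.9, 97.01 and 185.36 in WT/WT males. The longer row, NM_001359159, had 184.3, 294.67 and 203.07 reads in homozygous males, 269.75 in the female, 182.32, 194.86 and 341.25 in heterozygous males, and 324.43, 209.66 and 283.99 in WT/WT males. The second wild-type male was lowest in the shorter row, and the carriers were spread on both sides of the wild types in the longer row.

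Over both copies, the shorter rows made up 44.1% to 65.6% of the pair's reads in carriers and 32.1% to 43.7% in WT/WT males. The gap between heterozygous male 3 at 44.1% and WT/WT male 1 at 43.7% was narrow, and within carriers the share varied by more than that. No test was made, since this share comes from the contrast that chose the pair.

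**Figure D2:**
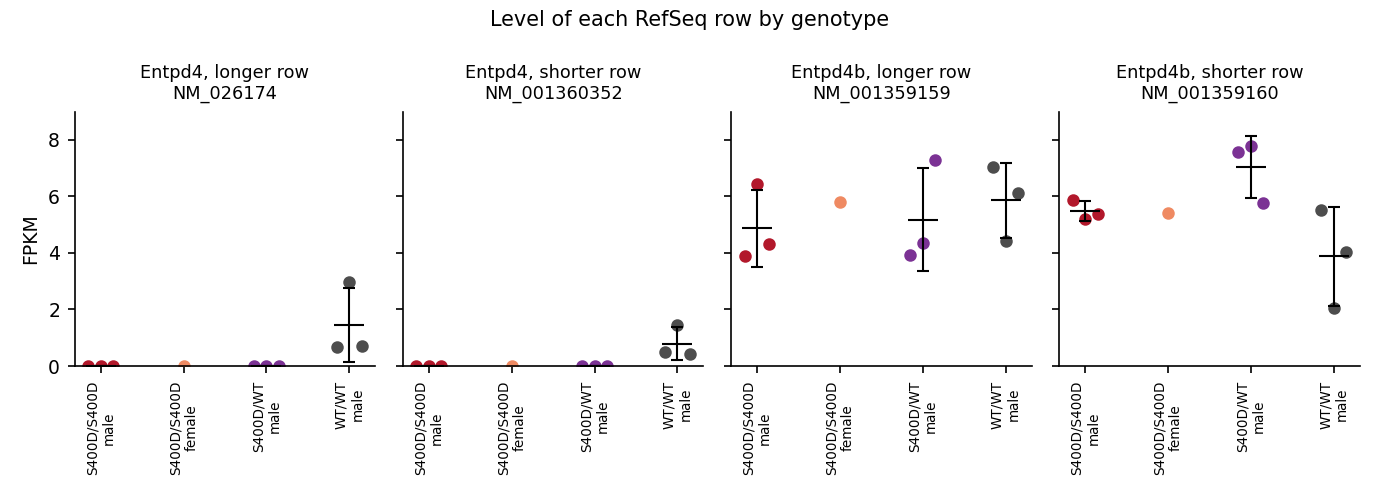
FPKM of the 4 RefSeq rows by genotype, with 1 point per animal and the mean ± SD (n = 3) of each male group; the female is 1 animal. The rows of Entpd4 are at 0 in every carrier, and those of Entpd4b are above 0 in all 10 libraries.

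Other genes that share an identical transcript were used to see how often reads move from one copy to the other with genotype. GENCODE holds 338 pairs of genes with a letter-for-letter identical transcript of at least 300 bases, and 6 of these had at least 100 reads in every library, Entpd4 and Entpd4b included. The share of the first gene did not overlap between carriers and WT/WT males in 1 of the 6 pairs (16.7%), which was the pair chosen for it. The share of Gm14391 in its pair with Gm6710 was 42.9% to 52.2% in carriers and 41.2% to 50.5% in WT/WT males. Srp54a, which encodes a subunit of the signal recognition particle, took 38.4% to 58.2% of the reads it shares with Srp54b in carriers and 46.3% to 47.8% in WT/WT males.

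The share of 2210418O10Rik in its pair with Gm14296 ran from 0% to 55.2% in carriers and from 0.0137% to 79.5% in WT/WT males. The split of this pair varied widely between animals, and its ranges overlapped between carriers and WT/WT males. A pair needed only 1 identical transcript to be listed, so it need not be as alike as Entpd4 and Entpd4b. The sum of this pair reached 357.9 reads, so not every sum was whole. The shares of Tmem254a were 3.92% to 5.25% in carriers and 3.49% to 3.94% in WT/WT males. Those ranges overlapped only at their edge.

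**Figure D3:**
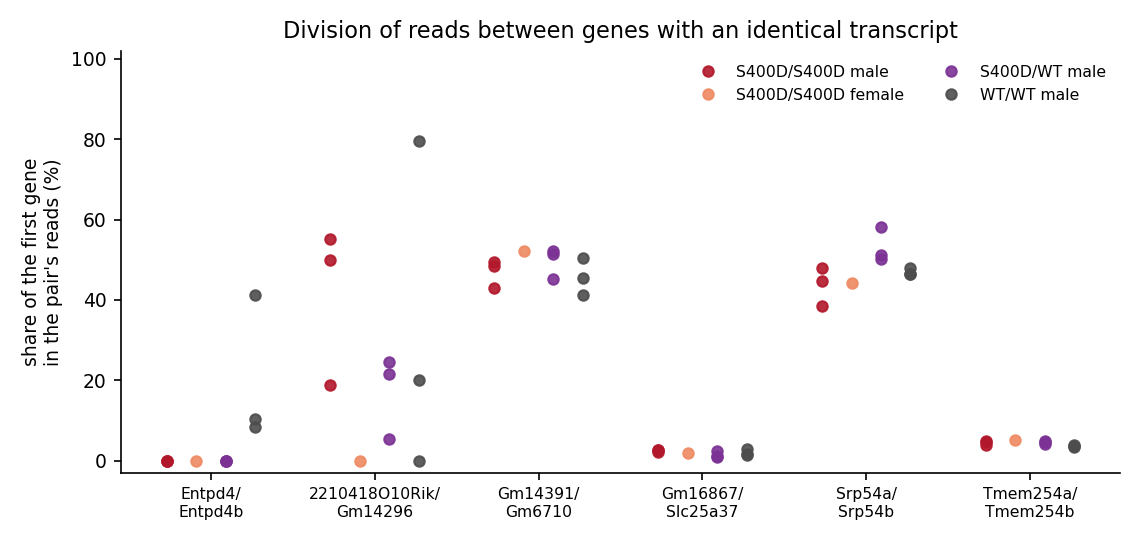
Share of the first named gene in the summed reads of 6 gene pairs with an identical transcript, 1 point per library, by group. The first pair is at 0% in every carrier and at 8.51% to 41.1% in WT/WT males; the points of the other 5 pairs overlap between carriers and WT/WT males.

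The pattern for which Entpd4 was chosen was counted over the table, as a description. Of 19271 genes, 1 (0.00519%) had 0 reads in all 7 carriers and at least 10 reads in every WT/WT male, and that gene was Entpd4, whose place there is fixed by the choice. No gene (0%) had the reverse pattern of 0 reads in all wild types and at least 10 in every carrier. Among the 77712 transcript rows, 8 (0.0103%) had the first pattern, 2 of them those of Entpd4, and 12 (0.0154%) had the reverse. Single rows were thus at 0 in either group.

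Genes around the pair also recur by position at the distance that separates the copies, while the sequence of the whole stretch was not compared. Counting genes within 250 kb of either copy whose start or end recurs 218250 bases further on, to within 300 bases, 4 pairs were found: Entpd4 and Entpd4b, Slc25a37 and Gm16867, Synb and LOC115488278, and Gm21451 and Loxl2. That tolerance was chosen after the positions were seen. Synb and LOC115488278 had at most 0.5 reads in any library, and Gm21451 at most 1.26.

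Slc25a37, which encodes the mitochondrial iron carrier mitoferrin, had 541 to 1083 reads in carriers and 698 to 998 in WT/WT males. Its copy Gm16867 had 9.5 to 22.7 reads in carriers and 14.2 to 20.2 in WT/WT males. By the position of their ends, Slc25a37 is the first copy, as Entpd4 is, and Gm16867 the second, as Entpd4b is. Their starts do not recur at the distance that separates Entpd4 and Entpd4b, and Gm16867 starts within the annotated span of Entpd4. Slc25a37 and Gm16867 are thus not a full positional parallel to Entpd4 and Entpd4b. Both Slc25a37 and Gm16867 kept reads in every library, and both ranges overlapped between carriers and wild types. The sum of Slc25a37 and Gm16867 was whole in 1 of 10 libraries. Loxl2, a lysyl oxidase that crosslinks collagen, had 31 to 91.8 reads in carriers and 32 to 75.6 in WT/WT males.

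Differences between genotypes in other genes were tested with edgeR's quasi-likelihood test on 12427 genes, with p-values adjusted by the Benjamini-Hochberg method over all of them. The comparison set the mean of homozygous and heterozygous males against WT/WT males, and it called 0 genes (0%) at an adjusted p under 0.05, with 843 genes at an unadjusted p under 0.05. The comparison of homozygous with WT/WT males called 0 (0%), with 1852 unadjusted, heterozygous with WT/WT males 0 (0%), with 521, and homozygous with heterozygous males 0 (0%), with 2134. DESeq2 called 33 of 12670 genes with an adjusted p for carrier against WT/WT males, and 308 of 12987 for homozygous against WT/WT males. It called 6 of 16469 for heterozygous against WT/WT males and 530 of 11404 for homozygous against heterozygous males. The comparisons share their animals, so their values are not independent of each other.

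None of the genes around the pair passed the edgeR test in any of the 4 comparisons. DESeq2 called Slc25a37 and Sorbs3, which encodes an adhesion adaptor, between homozygous and heterozygous males, and no other gene of the neighbourhood in any comparison. Between homozygous and heterozygous males it called 530 of 11404 genes in all. Of the 34 genes of the table within 1 Mb of either copy, 18 had enough reads to be tested, 9 with a positive and 9 with a negative log2 fold change in carrier males. Their median was 0.01, against -0.0032 over all genes tested. The 6 tested genes within 250 kb were Slc25a37 (-0.19, SE 0.14, adjusted p = 0.779), R3hcc1 (-0.19, SE 0.15, adjusted p = 0.7999), Loxl2 (0.33, SE 0.36, adjusted p = 0.853), Rhobtb2 (-0.12, SE 0.14, adjusted p = 0.856), Gm16867 (-0.14, SE 0.32, adjusted p = 0.935) and Chmp7 (-0.02, SE 0.10, adjusted p = 0.984). Chmp7 encodes a protein of the ESCRT machinery, which cuts membranes, and it lay at 36.2 ± 0.738 CPM in homozygous males, 42.4 ± 7.06 CPM in heterozygous males and 39.7 ± 2.98 CPM in WT/WT males (SD, n = 3 each).

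Slc25a37 had its lowest levels in homozygous males. It was at 30.9, 40.7 and 43.2 CPM in homozygous males and 49.7 CPM in the homozygous female, at 66.5, 53.3 and 51.0 CPM in heterozygous males, and at 58.5, 44.9 and 56.9 CPM in WT/WT males. All 3 homozygous males lay below all WT/WT males, by -0.48 on the log2 scale (SE 0.16, edgeR adjusted p = 0.258), and the female lay among the wild types. Against heterozygous males the difference of homozygous males was -0.57 (SE 0.16, edgeR adjusted p = 0.148), and DESeq2 called it. Erythroid markers, whose cells use mitoferrin heavily, summed to 161 to 188 CPM in homozygous males, 164 to 1024 CPM in heterozygous males and 139 to 1129 CPM in WT/WT males, and their part in this was not tested.

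**Figure D4:**
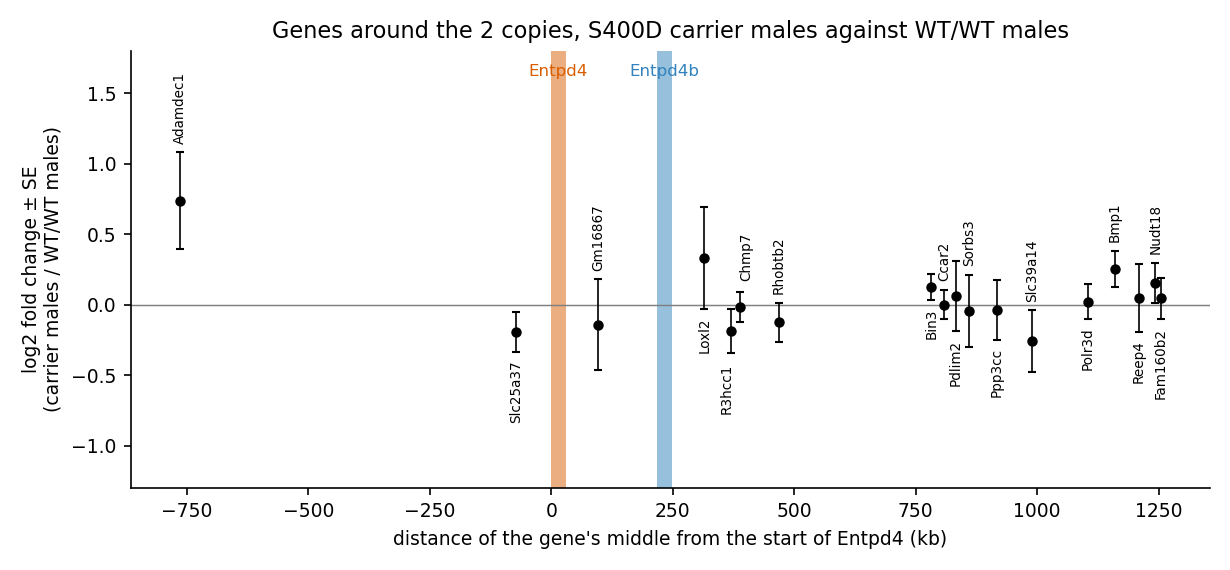
Log2 fold change ± SE from the edgeR fit, carrier males against WT/WT males, of the 18 tested genes within 1 Mb of Entpd4 or Entpd4b, by the distance of the gene's middle from the start of Entpd4 in kb. The shaded bands are the 2 copies; none of the 18 genes passed an adjusted p of 0.05, and 9 lie on each side of 0.

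Within the E-NTPDase family the pair stood below Entpd8 and Entpd5 and above the other genes in liver, on the FPKM scale, which allows for transcript length. Over all 10 libraries Entpd8, the enzyme of the bile canalicular membrane of hepatocytes, was at 56.96 ± 10.9 FPKM and Entpd5, an enzyme of the endoplasmic reticulum that hydrolyses UDP in the glycoprotein folding cycle, at 53.1 ± 9.72 FPKM (SD, n = 10). The levels of those neighbours in the order overlapped. The sum of Entpd4 and Entpd4b followed at 11.5 ± 1.27 FPKM, with 9.66 as the lowest and 13.71 as the highest library, and did not overlap any other family gene.

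Below the pair came Entpd6, a soluble and Golgi enzyme, at 3.36 ± 0.564 FPKM and Entpd2, a surface ATPase, at 2.55 ± 0.596 FPKM (SD, n = 10). These overlapped as well. Entpd1, the surface enzyme CD39 of endothelial and immune cells, was at 1.14 ± 0.442 FPKM, and Entpd7, another intracellular enzyme, at 0.375 ± 0.115 FPKM (SD, n = 10). Entpd1 overlapped Entpd2 and Entpd7. Entpd3 had at most 0.06 FPKM in any library, below every value of Entpd7, and was not tested. Taken by copy, Entpd4b averaged 10.3 ± 1.10 FPKM in homozygous males, 12.2 ± 0.785 FPKM in heterozygous males and 9.73 ± 3.07 FPKM in WT/WT males, and Entpd4 2.24 ± 1.90 FPKM in WT/WT males (SD, n = 3 each).

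The other family genes gave small differences between carrier and WT/WT males, and 0 of the 6 tested passed. Their log2 fold changes were 0.29 for Entpd1 (SE 0.40, edgeR adjusted p = 0.887), -0.14 for Entpd7 (SE 0.31, adjusted p = 0.937), 0.08 for Entpd6 (SE 0.18, adjusted p = 0.938), -0.04 for Entpd2 (SE 0.26, adjusted p = 0.979), -0.0034 for Entpd8 (SE 0.11, adjusted p = 0.995) and -0.0014 for Entpd5 (SE 0.18, adjusted p = 0.999). The signs of the last 3 turned under library size scaling. The median of the 6 was -0.0024, near that of all genes.

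The mean over carriers hid a split in Entpd8. It was at 66.8, 92.0 and 85.5 CPM in homozygous males, 99.4 CPM in the homozygous female, 121, 133 and 111 CPM in heterozygous males, and 94.8, 101.6 and 103.5 CPM in WT/WT males. Homozygous males lay below and heterozygous males above all WT/WT males. The difference of homozygous from heterozygous males was -0.58 on the log2 scale (SE 0.13) and did not pass in edgeR (adjusted p = 0.110), while DESeq2 called it.

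**Figure D5:**
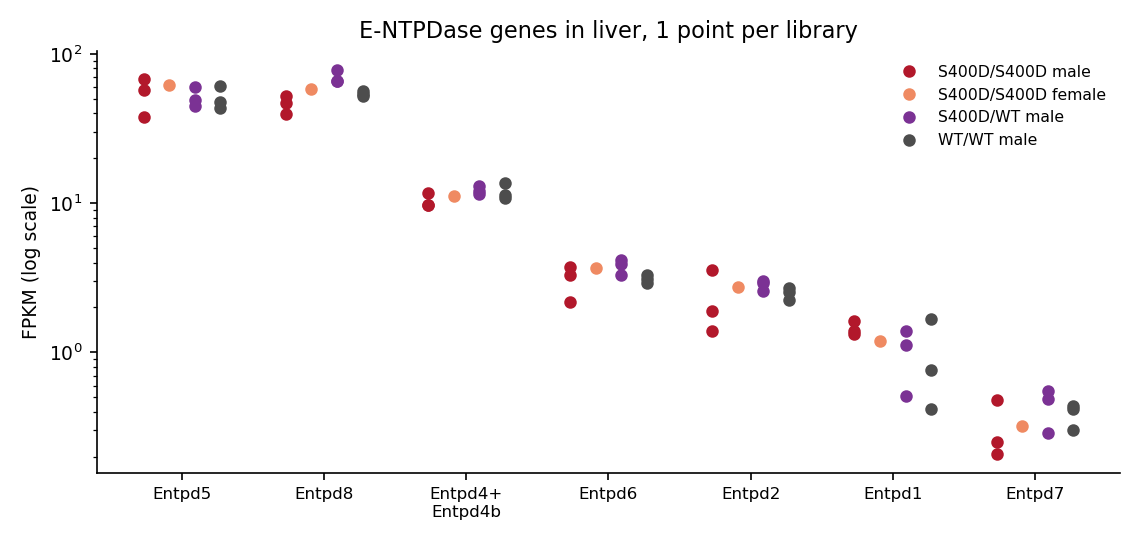
FPKM on a log scale of the E-NTPDase genes with reads in liver, 1 point per library, by group; Entpd3, at or near 0, is left out. The sum of Entpd4 and Entpd4b lies between 9.66 and 13.71 FPKM, below Entpd5 and Entpd8 and above Entpd6, in all 10 libraries.

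Genes that supply or use the same nucleotides were taken as lists, and 0 members of any list passed the edgeR test in either direction between carrier and WT/WT males. Over all genes tested in that comparison, 50.8% were negative (median -0.0032). Of 20 genes for nucleotide sugar supply of the Golgi and endoplasmic reticulum, 4 were positive and 16 negative (median -0.06). Slc35b1, which carries ATP into the endoplasmic reticulum, was at -0.25 (SE 0.09, adjusted p = 0.720), and Slc35a4, of the same carrier family, at -0.27 (SE 0.14, adjusted p = 0.735). Of 22 genes of Golgi structure and glycosylation, 15 were positive and 7 negative (median 0.05).

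Tgoln1, an integral protein of the trans-Golgi network, was at 0.31 (SE 0.12, adjusted p = 0.720), and Galnt1, which starts O-linked glycans, at 0.17 (SE 0.08, adjusted p = 0.735). The level of Tgoln1 was 214, 185 and 209 CPM in homozygous males, 134 CPM in the female, 110, 138 and 152 CPM in heterozygous males, and 128, 126 and 144 CPM in WT/WT males. All 3 homozygous males stood above all WT/WT males, the heterozygous males lay on both sides of them, and the female lay among them. DESeq2 called Tgoln1 between homozygous and WT/WT males, where edgeR did not (adjusted p = 0.160).

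Of 18 genes of pyrimidine nucleotide metabolism, 3 were positive and 15 negative in carrier males (median -0.13). Against WT/WT males, 15 were negative in homozygous males and 10 in heterozygous males. Upp2, the uridine phosphorylase of liver, was at -0.99 (SE 0.30, adjusted p = 0.714), and Nme6, of the nucleoside diphosphate kinase family, at -0.36 (SE 0.11, adjusted p = 0.714). The level of Upp2 was 144, 233 and 188 CPM in homozygous males, 438 CPM in the female, 672, 202 and 483 CPM in heterozygous males, and 634, 532 and 572 CPM in WT/WT males. Homozygous males were below all wild types, and 1 heterozygous male was in their range. Nme6 was at 6.45, 6.97 and 6.27 CPM in homozygous males, 11.2 CPM in the female, 11.1, 9.80 and 10.8 CPM in heterozygous males, and 12.02, 10.9 and 9.23 CPM in WT/WT males. The difference lay in the homozygous males, where edgeR gave -0.70 against WT/WT males (SE 0.14, adjusted p = 0.147). For Upp2 it gave -1.62 (SE 0.37, adjusted p = 0.167) in that comparison, and DESeq2 called both genes there.

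Of 9 genes listed as enzymes and carriers of released nucleotides and nucleosides, 5 were positive and 4 negative in carrier males (median 0.16). Ada, adenosine deaminase, was at 0.85 (SE 0.36, adjusted p = 0.730) and Pnp, purine nucleoside phosphorylase, at 0.40 (SE 0.21, adjusted p = 0.735). Of 9 P2 receptors, which sense extracellular nucleotides, 6 were positive and 3 negative (median 0.10). P2ry2, a receptor of ATP and UTP, was at -0.72 (SE 0.32, adjusted p = 0.732), and P2ry6, a receptor of UDP, at 0.76 (SE 0.34, adjusted p = 0.732).

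Because both copies lie on chromosome 14 and Htra2 on chromosome 6, genes that differ between the substrains C57BL/6J and C57BL/6N were listed as well. Entpd4 and Entpd4b themselves were left out of this list. Of 6, 5 were tested, 3 positive and 2 negative in carrier males (median 0.05). That mean joined unlike genotypes. Against WT/WT males, 5 were positive in homozygous males (median 0.30). In heterozygous males 1 was positive and 4 were negative (median -0.10). In the carrier comparison Cyfip2, an actin regulator, was at 0.59 (SE 0.44, adjusted p = 0.781) and Ide, the insulin-degrading enzyme, at -0.04 (SE 0.07, adjusted p = 0.912). Nnt, a mitochondrial transhydrogenase that C57BL/6J lacks in working form, was picked after its values were seen. It was at 166 ± 1.81 CPM in homozygous males, 118 ± 20.9 CPM in heterozygous males and 135 ± 19.3 CPM in WT/WT males (SD, n = 3 each), and at 166 CPM in the female. Htra2 itself was at 14.9 ± 0.586 CPM in homozygous males, 15.9 ± 0.748 CPM in heterozygous males and 14.05 ± 2.82 CPM in WT/WT males (SD, n = 3 each). A point mutation need not alter that level, so it does not check the genotype labels.

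The genes most like each copy were taken by Pearson's r of log2(CPM + 0.5) over the 10 libraries, among 11288 genes. For Entpd4 they were Tshz1 (0.945), Bud13 (0.905), Ccne1 (0.871), Setd7 (0.865) and Naa80 (0.855). Bud13, which encodes a splicing factor, was at 4.74 to 6.81 CPM in carriers and 11.2 to 12.9 CPM in WT/WT males, with no overlap. Naa80, the enzyme that acetylates actin, was at 33.1 to 43.6 CPM in carriers and 51.5 to 55.00 CPM in WT/WT males. They were picked for likeness to a gene at 0 in 7 libraries, so a gap of this kind follows from the choice. Bud13 was among the 6 genes that DESeq2 called between heterozygous and WT/WT males, where edgeR called none. That call rests on libraries used to pick Bud13, so it is not separate support.

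For Entpd4b the most alike genes were Dok4 (0.9499), Slc16a13 (0.918), Homer3 (0.912), Rhoc (0.901) and Serinc2 (0.875). All 5 had their lowest level in the second WT/WT male, such as Rhoc, a small GTPase, at 4.18 CPM there against 6.28 to 10.3 CPM in the other 9 libraries. Entpd4b was lowest in the same animal, at 19.8 CPM, so low levels of these genes there follow from the choice. The sum of both copies was not lowest in that animal. The correlation between Entpd4 and Entpd4b was -0.57 over the 10 libraries, which are split from 1 sum of reads.

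The liver markers and other cell types were read in the same libraries. Each library held 16240441 to 17264289 expected counts. Hepatocyte markers summed to 113363 to 138371 CPM in homozygous males, 78875 to 104996 CPM in heterozygous males and 100696 to 115466 CPM in WT/WT males. The homozygous and heterozygous males did not overlap, and DESeq2 called Alb (higher in homozygous males) and Apoa1 (lower) between them. Of 6 Kupffer cell markers, 6 were positive in carrier males, with sums of 215 to 243 CPM in homozygous males, 100 to 239 CPM in heterozygous males and 75.5 to 253 CPM in WT/WT males. Of 5 sinusoidal endothelial and 5 stellate markers all were positive too, and of 4 cholangiocyte and 3 erythroid markers all were negative, with 0 called in any list. Of all genes tested in carrier against WT/WT males, 50.8% were negative. In WT/WT male 2, where Entpd4b was lowest, the Kupffer sum was 102.5 and the endothelial sum 64.5 CPM, and in WT/WT male 3 they were 75.5 and 69.4 CPM with Entpd4b at 28.9 CPM. Their part in the level of the copies was not tested, and in whole tissue fewer cells of a type and less RNA per cell cannot be told apart.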

How the data were processed

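Liver RNA of 10 mice was sequenced after poly(A) selection, per the labels' protocols. The authors deposited expected counts (estimated, not rounded), FPKM (scaled to length and library) and TPM (scaled to a fixed sum) for each transcript row. HISAT, Bowtie2 and GRCm38.p6 are named in the submitters' processing notes; neither these nor the labels' protocols say which program divided shared reads.

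Counts were summed by gene and rounded for tests. Genotypes of the 9 males were fitted together with edgeR 4.0.16 in R 4.3.3 (TMM factors, its filter on low counts, quasi-likelihood test, Benjamini-Hochberg adjustment, threshold 0.05), after a trial on simulated data; DESeq2 1.42.0 and limma 3.58.1 served as alternatives. CPM levels use TMM factors of all 10 libraries. Transcript letters and positions come from GENCODE M21 and gene spans from RefSeq, both GRCm38. Implied lengths are counts divided by FPKM and library total.

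The members and lists were chosen with earlier results of these data known. Named besides the pair are tested family genes and neighbours within 250 kb, per list the 2 members with the smallest p, the 5 genes most like each copy, and Htra2. Entpd8, Nnt and levels of single list members were singled out after their values were seen.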

Additional observations from a re-analysis of the deposited data

How the results depend on the processing

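With DESeq2 the genes called were 308 of 12987 for homozygous against WT/WT males and 6 of 16469 for heterozygous against WT/WT males. They were 530 of 11404 for homozygous against heterozygous males and 33 of 12670 for carriers against WT/WT males. In each of these comparisons edgeR called 0. Of the listed genes, DESeq2 called Upp2, Nme6, Tgoln1, Lyve1 and Dcn between homozygous and WT/WT males. It called 15 between homozygous and heterozygous males, Entpd8, Slc25a37, Sorbs3, Upp2, Nme6 and Tgoln1 among them, and none between carriers and WT/WT males. How these counts stand against the share called over all genes was not tested. Leaving out 1 male gave 0 to 18 calls for homozygous against WT/WT males (18 without WT/WT male 1, and Csrp3 and Klhdc7a without homozygous male 2), 0 to 0 for heterozygous against WT/WT males, 0 to 6 for homozygous against heterozygous males (6 without homozygous male 2) and 0 to 1 for carriers against WT/WT males (Bcl3, without WT/WT male 1). The causes were not tested. Deviations of same-numbered animals correlated at -0.20, -0.075 and -0.095 for homozygous and WT/WT males, -0.44, -0.051 and -0.21 for heterozygous and WT/WT males, and 0.21, 0.15 and 0.017 for homozygous and heterozygous males, so not every pair was above 0.1 and the numbers were not taken to pair the animals. With the replicate number as a block, 0 genes were called in each comparison.

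The ratio of the summed copies was -0.17 and stayed negative in every alternative run; it was -0.052 on TPM, and -0.21 to -0.11 when 1 male was left out. Entpd4b alone ran from -0.037 to 0.35. The signs of family genes and neighbours near 0 turned. With library size alone the log2 fold changes were 0.027 for Entpd2, 0.062 for Entpd5, 0.068 for Entpd8 and 0.055 for Chmp7. With limma on log2(FPKM + 1) or log2(FPKM + 0.1) they were 0.048 and 0.049 for Entpd5, 0.074 and 0.075 for Entpd8, and 0.047 and 0.049 for Chmp7, and with a filter of 1 CPM in 3 samples 0.0012 for Entpd5. When 1 male was left out the ranges were -0.048 to 0.90 for Entpd1, -0.27 to 0.084 for Entpd2, -0.090 to 0.10 for Entpd5, -0.0030 to 0.18 for Entpd6, -0.35 to 0.021 for Entpd7, -0.053 to 0.058 for Entpd8, -0.38 to 0.042 for Gm16867 and -0.084 to 0.043 for Chmp7. Slc25a37, R3hcc1, Rhobtb2 and Loxl2 kept their sign in every alternative run. None of these family genes and neighbours passed 0.05 in the carrier comparison under any of them.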
